A study of Mus musculus with 8 samples.

Results

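The dual-specificity MAP kinase phosphatases are the enzymes that switch MAP kinases off, and 10 of them were measured here: Dusp1, Dusp2, Dusp4, Dusp5, Dusp6, Dusp7, Dusp8, Dusp9, Dusp10 and Dusp16. They were found by their names in the gene name column of the array files, with every probe kept, which gave 12 of 55681 probes and 10 of 36163 gene names. Dusp7 and Dusp16 had 2 probes each and the others 1. All 12 probes were well above background on all 8 arrays and none was saturated, so all 10 genes passed the filter on dim probes.

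The samples were whole-lung total RNA from C57BL/6 mice that had all received LPS, the bacterial lipopolysaccharide sensed through TLR4, 12 h earlier. Of the 8 lungs, 4 came from wild-type mice and 4 from mice with a knockout of Ggps1 restricted to the lung. The gene's product, geranylgeranyl diphosphate synthase, supplies the lipid that anchors many small GTPases to membranes, and acute lung injury is named in the series title as the setting. The Cre driver, the deleted part of the gene and the age of the mice are not given in the sources used here. Lungs without LPS were not analysed here, so each value compares genotypes under LPS and none measures the response to LPS.

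MAP kinases are activated when a kinase above them phosphorylates a threonine and a tyrosine in their activation loop, and a dual-specificity phosphatase removes both phosphates. Dusp1, Dusp2, Dusp4 and Dusp5 are nuclear proteins whose genes are switched on as immediate early or delayed early genes by the pathway they restrain. Dusp6, Dusp7 and Dusp9 are cytoplasmic and prefer ERK, while Dusp8, Dusp10 and Dusp16 prefer the stress kinases p38 and JNK. In innate immune cells, LPS induces several of these genes within the first hours, and Dusp1 in particular limits p38 and JNK signalling and the cytokine output of macrophages.

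Promoters are shown for the 3 genes with a full cyclic AMP response element or a serum response motif, elements known from inducible genes, and for Dusp6, the member whose groups did not overlap. RefSeq promoters (GRCm38.p6, the 250 bases before the transcript start, 5′ to 3′ on the gene's strand) were matched for 8 of the 10 genes. The full cyclic AMP response element TGACGTCA lies in 1.55% of 32841 promoters of this length, and its shorter core TGACG in 17.8% on either strand. The CArG box, the serum response factor motif, lies in 1.47%. In the Dusp1 promoter (chr17:26508473-26508722, minus strand) the capitals mark a core 191 bases before the start and a full element at 143. In the Dusp5 promoter (chr19:53528895-53529144, plus strand) they mark adjoining CArG boxes at 82 and 72 and a core on the other strand at 55. In the Dusp8 promoter (chr7:142095285-142095534, minus strand) they mark a pair of full elements, the nearer at 63. The Dusp6 promoter (chr10:99262981-99263230, plus strand) held none of these 3 motifs and has no capitals.
Dusp1: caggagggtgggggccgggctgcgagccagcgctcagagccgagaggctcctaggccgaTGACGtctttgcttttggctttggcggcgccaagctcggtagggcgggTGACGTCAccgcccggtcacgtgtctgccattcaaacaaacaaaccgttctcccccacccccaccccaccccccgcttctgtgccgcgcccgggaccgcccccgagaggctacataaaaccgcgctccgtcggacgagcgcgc
Dusp5: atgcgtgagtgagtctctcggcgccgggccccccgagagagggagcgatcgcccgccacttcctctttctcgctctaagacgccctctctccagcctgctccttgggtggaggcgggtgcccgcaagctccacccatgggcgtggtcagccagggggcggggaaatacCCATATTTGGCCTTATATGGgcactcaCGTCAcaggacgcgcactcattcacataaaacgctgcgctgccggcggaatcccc
Dusp8: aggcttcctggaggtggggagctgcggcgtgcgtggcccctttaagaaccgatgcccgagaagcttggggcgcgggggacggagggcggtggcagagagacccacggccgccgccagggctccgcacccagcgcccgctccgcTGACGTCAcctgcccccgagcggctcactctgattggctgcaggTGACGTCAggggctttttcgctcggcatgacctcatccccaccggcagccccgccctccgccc
Dusp6: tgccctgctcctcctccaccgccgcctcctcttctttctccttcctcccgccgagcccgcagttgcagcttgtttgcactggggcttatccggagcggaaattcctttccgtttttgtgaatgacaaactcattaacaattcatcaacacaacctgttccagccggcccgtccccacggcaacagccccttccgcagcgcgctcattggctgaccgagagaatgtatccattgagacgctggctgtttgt

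The core was also found in the Dusp16 promoter, 70 bases before the start, and the promoters of Dusp2, also an inducible nuclear member, Dusp7 and Dusp10 held none of the 3 motifs. The AP-1 motif TGANTCA (6.75% of promoters), the TATAAA box (12.4%) and the NF-kB motif (3.90%) were searched on both strands too, and none of the 8 promoters held one. The CCAAT box, in 33.9% of promoters, was found in those of Dusp6, Dusp7, Dusp8, Dusp10 and Dusp16. These matches describe letters in a window, and the arrays did not measure what binds there.

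The Dusp7 probes are shown because they overlap on the genome and share part of their sequence. They lie on mm9, the build of the array files, at chr9:106277985-106278044 and chr9:106277943-106278000. In these 30-base stretches the capitals mark the 15 bases both probes hold.
Dusp7 brighter probe: cACACATATATATCCCgagccagcaacggg
Dusp7 dimmer probe: gacacacacacacatACACATATATATCCC

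The Ggps1 probe read 1.26 to 1.40 in wild-type and 1.22 to 1.32 in knockout lungs (log2 signal relative to the array's 75th percentile, the scale of all levels below), and since the deleted part is not given it does not check the labels. All 8 arrays lay on 1 slide, wild-type in row 1 and knockout in row 2, so slide position and genotype cannot be told apart. Knockout arrays were dimmer: 58.1% to 61.6% of their spots were well above background, against 61.5% to 65.3% on wild-type arrays. Their 75th-percentile signal was 576 to 660, against 646 to 753 on wild-type arrays. The part of this in the differences below was not tested. The arrays correlated with each other at r of 0.97 to 0.99. Lung parenchyma markers, such as the surfactant genes, averaged 5.91 to 6.51 in every lung. Cardiac muscle markers stood apart between lungs: their 14-gene mean ran from -0.93 in wild-type 1 to 3.47 in knockout 2. Fat markers varied more widely, from -3.63 in wild-type 4 to 2.90 in knockout 4, and Lep, Adipoq and Plin1 were not well above background on some arrays.

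Differences between genotypes were tested with a two-sided limma fit of 24469 genes, and p-values were adjusted over all of them by Benjamini-Hochberg with a threshold of 0.05. None of the 10 phosphatases passed, and 0.0613% of all genes did: 8 were higher (0.0327%) and 7 lower (0.0286%) in knockout lungs, or 6 and 11 after median centring. With each probe on its own, 0 of the 12 probes passed against 0.0649% of 33876 probes. At an unadjusted p under 0.05, 2 phosphatases were lower, Dusp5 and Dusp6, against 13.4% of all genes lower and 10.2% higher. Mean levels were lower in knockout lungs for 9 of the 10, against 54.3% of all genes, and Dusp9 alone had a higher mean. These genes are not independent: Dusp2, Dusp4, Dusp5 and Dusp16 varied together between lungs (r of 0.93 to 0.99, described below). The median difference of the 10, knockout minus wild-type, was -0.29 on the log2 scale, against -0.03 over all genes tested. By class, the median was -0.40 for the 4 nuclear genes, -0.16 for the 3 cytoplasmic genes and -0.31 for the 3 stress-kinase genes. The cytoplasmic median is the value of Dusp7, which was -0.01 without knockout 2 and 0.16 with the cardiac covariate described below. In whole-lung RNA, fewer cells of a type and less RNA per cell cannot be told apart.

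**Figure D1:**
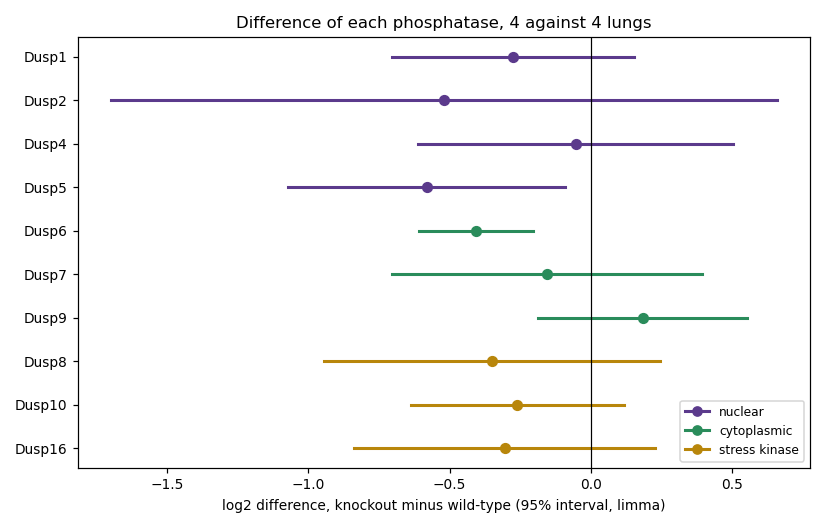
Difference between knockout and wild-type lungs for each of the 10 phosphatases on the log2 scale (x axis; points are limma estimates, bars 95% intervals, colours the 3 classes). The intervals of Dusp5 (-1.07 to -0.09) and Dusp6 (-0.61 to -0.20) lie below 0, and the other 8 cross it.

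The plot of differences shows how unequal the precision was. The interval of Dusp6 spanned the narrowest range and that of Dusp2 the widest, from -1.70 to 0.66. The intervals are not adjusted for the number of genes.

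Leukocyte markers were also measured in these lungs. All 11 macrophage and monocyte markers measured were lower in knockout lungs, with a list mean of 2.87 to 3.33 in wild-type and 2.08 to 2.66 in knockout lungs and a median difference of -0.68. All 12 lymphocyte markers were lower as well, with a list mean of 0.26 to 0.55 against -0.54 to 0.29 and a median difference of -0.36. Neutrophil markers were lower for 7 of 11, with overlapping list means of 5.07 to 5.63 against 4.90 to 5.22. At an unadjusted p under 0.05 in limma, 9 of 11 macrophage and monocyte, 4 of 12 lymphocyte and 2 of 11 neutrophil markers were lower. Of all genes, 13.4% were. Every knockout lung lay below every wild-type lung for 6 of the 11 macrophage and monocyte markers, against 9.21% of all genes. No marker of these 3 lists passed the threshold (smallest adjusted p 0.0628, for Plac8, in limma), and their part in the phosphatase values was not tested.

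Among the nuclear phosphatases, Dusp5, which binds ERK in the nucleus, had the largest mean difference. It read -3.13, -2.34, -2.92 and -2.65 in wild-type lungs 1 to 4 and -3.49, -2.91, -3.65 and -3.32 in knockout lungs 1 to 4. Knockout 2 alone came up into the wild-type range, just above wild-type 3, and the other 3 knockout lungs lay below every wild-type lung. The difference was -0.58 (SE 0.21, n = 4 per group), 1.5-fold lower, with an adjusted p of 0.160 in limma and an exact permutation p of 0.0857. The smallest exact two-sided p that 4 against 4 lungs can give is 0.0286.

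Dusp1, the phosphatase of p38 and JNK that glucocorticoids and LPS both induce, read 3.76, 4.72, 4.17 and 4.06 in wild-type lungs and 3.93, 3.97, 3.89 and 3.82 in knockout lungs. The knockout lungs were nearly equal to each other and sat inside the wider wild-type range, between its lowest lung, wild-type 1, and the next one. The SD was 0.40 in wild-type and 0.06 in knockout lungs, a spread that was not tested. The difference was -0.28 (SE 0.19, n = 4 per group; adjusted p 0.389, limma). Without wild-type 2, the highest lung, it was -0.09.

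Dusp2, an ERK and p38 phosphatase best known from activated lymphocytes and myeloid cells, varied more between lungs than any other member. Its levels were 4.31, 6.25, 5.32 and 5.79 in wild-type lungs and 4.57, 5.97, 4.02 and 5.03 in knockout lungs. Wild-type 2 and knockout 2 were the highest of their groups and wild-type 1 and knockout 3 the lowest, and the groups overlapped over most of their range. The difference of -0.52 (SE 0.51, n = 4 per group; adjusted p 0.558, limma) was smaller than the SD within either group, 0.83 in both, and ran from -0.89 without wild-type 1 to -0.23 without knockout 3.

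Dusp4, which acts on ERK and JNK, read -2.32, -1.38, -2.09 and -1.76 in wild-type lungs and -2.21, -1.43, -2.13 and -2.0 in knockout lungs. The same-numbered lungs 2 were again the highest of each group, and the ranges lay almost on top of each other. Its difference was -0.05 (SE 0.24, n = 4 per group; adjusted p 0.913, limma), with an interval of -0.61 to 0.50, and its sign turned to 0.12 without wild-type 2.

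**Figure D2:**
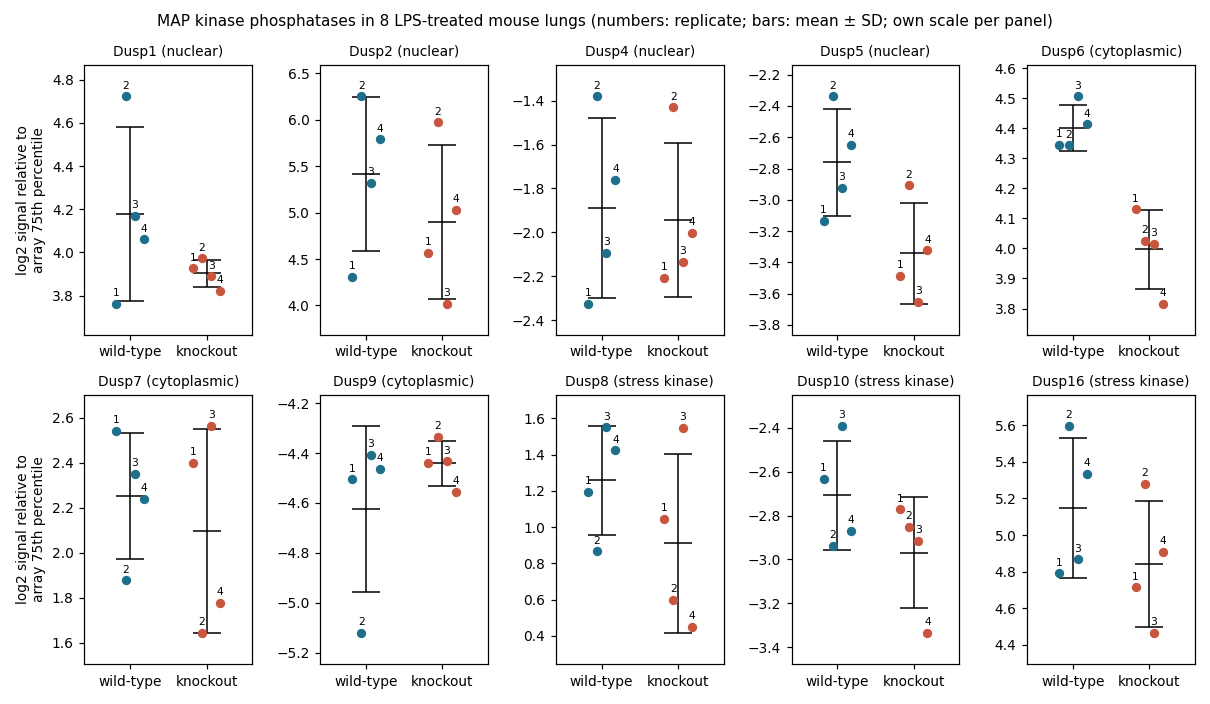
Level of each phosphatase in the 8 lungs (y axis: log2 signal relative to the array's 75th percentile, own scale per panel; points are lungs with their replicate number, bars mean ± SD, n = 4). Dusp6 alone has every knockout lung (3.82 to 4.13) below every wild-type lung (4.34 to 4.51).

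The plot of levels by lung sets the steady members beside the variable ones. Dusp2, Dusp4, Dusp5 and Dusp16 repeat one pattern of high and low lungs, Dusp6 does not, and Dusp1 differs in spread.

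In the cytoplasmic class, Dusp6, the feedback phosphatase that ERK signalling itself induces, was the one member whose groups did not overlap. Its levels were 4.35, 4.34, 4.51 and 4.41 in wild-type lungs and 4.13, 4.03, 4.02 and 3.82 in knockout lungs. Every knockout lung lay below every wild-type lung, a pattern that 9.21% of all genes showed in this direction and 6.10% in the other. The difference was -0.41 (SE 0.088, n = 4 per group), 1.32-fold lower, and its p-value ranked 599 of 24469 in limma. The adjusted p was 0.0693, which missed the threshold, and the exact permutation p was 0.0286, the smallest this design allows.

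The call for Dusp6 depended on the processing while its direction did not. It fell by 0.41 and passed with normexp background correction (adjusted p 0.0454 in limma, where 1.16% of all genes were called lower). It also passed when dim probes were kept (adjusted p 0.0466, 2.17% called lower) and with an intensity trend in the variance (adjusted p 0.0481, 1.05% called lower). Over all 20 alternatives the difference stayed between -0.46 and -0.34, with adjusted p from 0.0454 to 0.160. The scaling set both ends: -0.46 with median centring (adjusted p 0.0719, limma) and -0.34 with the deposited values (adjusted p 0.0897).

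Dusp7, an ERK phosphatase close in sequence to Dusp6, read 2.54, 1.88, 2.35 and 2.24 in wild-type and 2.40, 1.65, 2.56 and 1.78 in knockout lungs with its brighter probe. The lungs numbered 2 and knockout 4 were low, and the groups overlapped. The difference was -0.16 (SE 0.24, n = 4 per group; adjusted p 0.718, limma), and it ran from -0.31 without knockout 3 to -0.01 without knockout 2. The overlapping probe shown above read 1.1, 0.25, 0.29 and -0.12 against 0.21, -0.57, 0.50 and 0.27, a difference of -0.28 (exact permutation p 0.457). Both probes placed knockout 2 lowest and knockout 3 highest among the knockout lungs, but they ordered the wild-type lungs differently.

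Dusp9, an ERK phosphatase known mainly from placenta and fetal tissue, was the only member with a higher mean in knockout lungs. Its probe read -4.51, -5.12, -4.41 and -4.46 in wild-type and -4.44, -4.34, -4.43 and -4.56 in knockout lungs. These were the lowest levels of any member, though called well above background on all 8 arrays. Wild-type 2 lay far below the other 7 lungs, which spanned -4.56 to -4.34. The difference of 0.18 (SE 0.16, n = 4 per group; adjusted p 0.507, limma) shrank to 0.02 without that lung.

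The stress-kinase phosphatases all had lower means in knockout lungs, with similar differences and overlapping groups. Dusp8, which acts on JNK and p38 and carries the pair of full cyclic AMP response elements shown above, read 1.20, 0.87, 1.55 and 1.42 in wild-type and 1.05, 0.60, 1.55 and 0.45 in knockout lungs. Knockout 4 and knockout 2 lay below every wild-type lung, and knockout 3 nearly equalled the highest wild-type lung. The difference was -0.35 (SE 0.26, n = 4 per group; adjusted p 0.432, limma), with -0.19 without knockout 4 and -0.56 without knockout 3.

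Dusp10, a p38 and JNK phosphatase that restrains innate and adaptive immune responses, read -2.63, -2.94, -2.39 and -2.87 in wild-type lungs. In knockout lungs it read -2.77, -2.85, -2.92 and -3.33. Knockout 4 was lowest and wild-type 3 highest, with the other 6 lungs intermixed. The difference was -0.26 (SE 0.16, n = 4 per group; adjusted p 0.357, limma), with -0.14 without knockout 4 and -0.16 without wild-type 3.

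Dusp16, a JNK phosphatase expressed in macrophages, read 4.79, 5.60, 4.87 and 5.33 in wild-type and 4.71, 5.28, 4.46 and 4.91 in knockout lungs with its brighter probe. Wild-type 2 was the highest lung and knockout 3 the lowest, and the groups overlapped. The difference was -0.31 (SE 0.23, n = 4 per group; adjusted p 0.442, limma), and leaving out 1 lung moved it from -0.16 without wild-type 2 to -0.45 without knockout 2. Its second probe, at chr6:134668003-134668062 on mm9 and apart from the first at chr6:134665783-134665842, gave -0.40 (exact permutation p 0.257) and ordered the lungs of each group alike.

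Within each genotype, some of the phosphatases varied from lung to lung in 2 opposed blocks. The first was Dusp2, Dusp4, Dusp5 and Dusp16, and the second only Dusp7 and Dusp8. After each group's mean was subtracted, Dusp2, Dusp4, Dusp5 and Dusp16 deviated together over the 8 lungs, with r from 0.93 for Dusp2 with Dusp4 to 0.99 for Dusp5 with Dusp16. Dusp7 ran against all 4, with r from -0.90 with Dusp2 to -0.83 with Dusp4, and Dusp8 followed Dusp7 (r = 0.85). Dusp8 ran against the first block less closely, with r from -0.70 with Dusp16 to -0.53 with Dusp4. Dusp6 tracked Dusp10 (r = 0.85) and none of the first block (r from -0.24 to -0.09). These are descriptions over 45 pairs in 8 lungs on 1 slide. Deviations of wild-type 2 and knockout 2 correlated at 0.47 over 24461 genes, so the blocks are not shown to be particular to this family. The blocks cut across the 3 classes: the JNK phosphatase Dusp16 moved with 3 nuclear genes, and Dusp1, also nuclear, followed them less closely (r of 0.64 to 0.73).

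**Figure D3:**
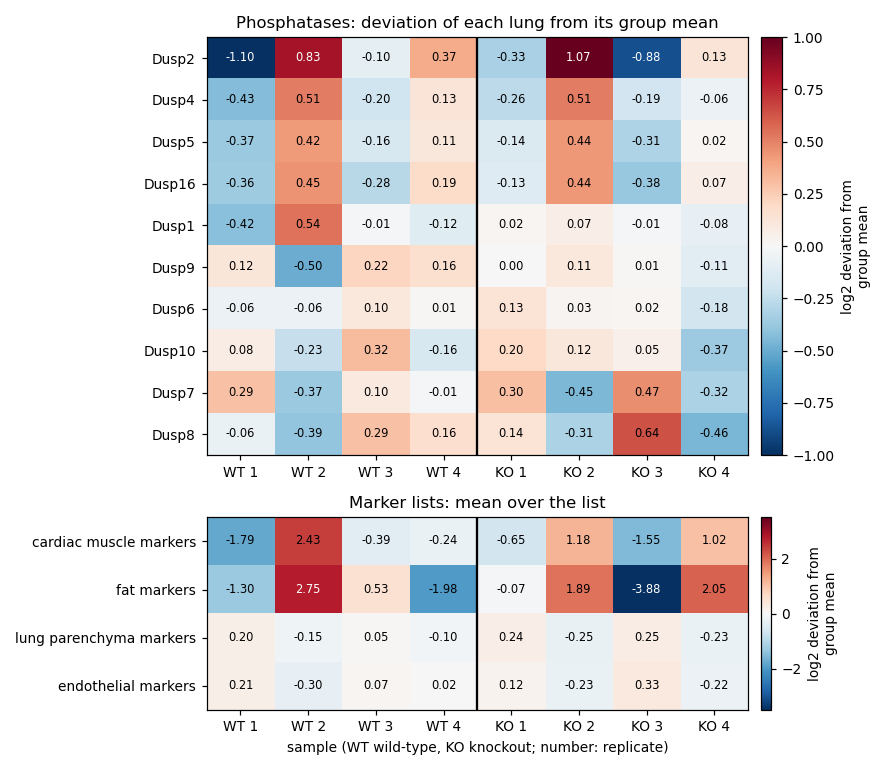
Deviation of each lung from its group mean (log2, colour and printed value) for the 10 phosphatases (upper panel) and for 4 marker lists (lower panel, list means). Dusp2 was 0.83 above its group mean in wild-type 2 and 1.07 above in knockout 2, where cardiac markers were 2.43 and 1.18 above theirs, while Dusp7 was 0.37 and 0.45 below.

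The map of deviations sets these blocks beside the tissue markers. The cardiac muscle list deviated with Dusp5 (r = 0.91), Dusp2 (0.90), Dusp16 (0.89), Dusp4 (0.86) and Dusp1 (0.78), and against Dusp7 (-0.92) and Dusp8 (-0.76). The fat list did likewise, at 0.71 with Dusp2 and 0.70 with Dusp5 and at -0.84 with Dusp7 and -0.86 with Dusp8. All 7 of its measured markers had higher means in knockout lungs. Of these, Lep, Adipoq and Plin1 passed the filter on dim probes only through the knockout group. Their direction was therefore largely set by the filter. Endothelial markers did the reverse, at 0.98 with Dusp7 and 0.87 with Dusp8 and at -0.90 with Dusp16. Lung parenchyma markers deviated with Dusp7 (0.97) and Dusp8 (0.75) as well. They ran against Dusp2 (-0.87), Dusp16 (-0.84), Dusp5 (-0.84) and Dusp4 (-0.79). Dusp6 was at -0.61 with the ciliated list, 0.50 with the lung parenchyma list, 0.43 with the endothelial list and -0.35 with the cardiac list. Dusp9 ran against the neutrophil list (-0.89). Each r is over the same 8 lungs, and values on 1 array share its scaling.

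Of the 14 cardiac markers, 13 had a higher mean in knockout lungs, with wide overlap between the groups. The list mean was -0.93, 3.29, 0.47 and 0.62 in wild-type and 1.64, 3.47, 0.74 and 3.31 in knockout lungs. Wild-type 2, knockout 2 and knockout 4 were the 3 high lungs. No cardiac marker passed the threshold (0 of 14 also at an unadjusted p under 0.05, limma), and all were well above background in every lung.

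With the cardiac list mean as a covariate, differences of the first block grew. The direction of each member's shift was set by its r with the cardiac list and by that list's higher mean in knockout lungs (difference 1.43). These shifts are therefore no separate evidence on the phosphatases. Dusp5 fell by 0.86 (SE 0.12; adjusted p 0.0303, limma) and Dusp16 fell by 0.60 (SE 0.14; adjusted p 0.0478), so that 2 of the 10 passed where 4.16% of all genes were called lower. Dusp2 was at -1.20 (SE 0.28) and missed the threshold at an adjusted p of 0.0506. Dusp1 was at -0.48 (adjusted p 0.0861), Dusp6 at -0.37 (adjusted p 0.0632) and Dusp4 at -0.36 (adjusted p 0.185). In this fit 5 members were lower at an unadjusted p under 0.05, against 15.8% of all genes lower and 13.5% higher.

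The second block moved the other way under the covariate, a direction set in the same way by its negative r with the cardiac list. Dusp7 turned from -0.16 to 0.16 (adjusted p 0.420, limma) and Dusp8 shrank from -0.35 to -0.06 (adjusted p 0.863), while Dusp10, outside both blocks, was at -0.14 (adjusted p 0.607). Dusp9 was at 0.34 (adjusted p 0.183).

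**Figure D4:**
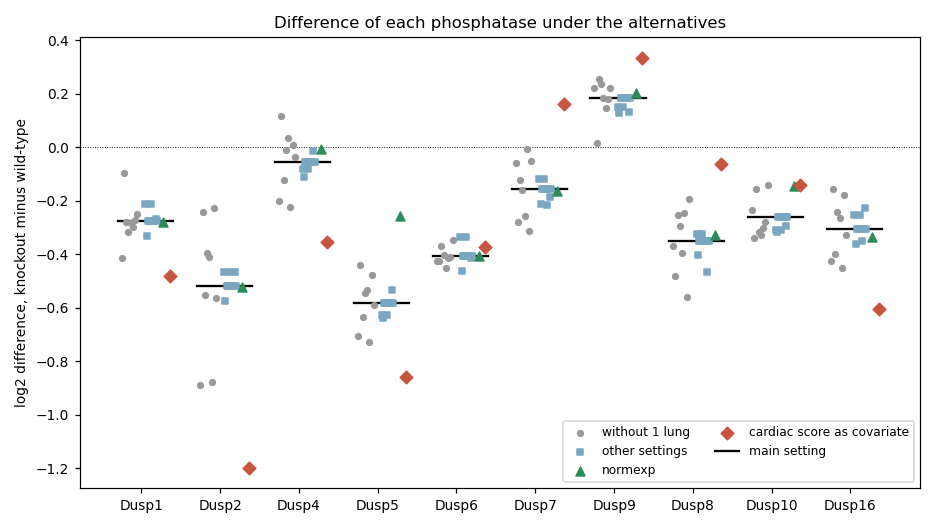
Difference between knockout and wild-type lungs (y axis, log2) for each phosphatase in the main setting (black line), without each lung in turn (grey), with normexp (green), with the cardiac list mean as a covariate (red) and in the other settings (blue). Dusp6 keeps to a band of -0.46 to -0.34, Dusp2 spans -1.20 to -0.23, and Dusp4 and Dusp7 cross 0.

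The plot of alternatives also marks where the background correction mattered. Dusp5, a dim probe, went from -0.58 to -0.26 with normexp (adjusted p 0.197, limma), and Dusp10 from -0.26 to -0.14. Across all 20 alternatives, 8 of the 10 genes kept the direction of their difference in every one, Dusp4 did so in 17 and Dusp7 in 19.

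Genes whose lung-to-lung pattern was most like that of a member of each class were ranked by r over the 8 lungs after removing group means, among 24468 other genes. For Dusp1 they were D10Wsu102e (0.99), Myo5a (0.98), Hsbp1 (0.97), Tnfaip8l1 (0.96) and Map2k1 (0.95), with 47 genes above 0.9. Their rank correlations (Spearman) with Dusp1 were lower, at 0.83 to 0.93. Dusp1 deviated most in wild-type 1 (-0.42) and wild-type 2 (0.54), and by at most 0.08 in knockout lungs. Its r values, here and above, thus rest mainly on those wild-type lungs. For Dusp6 the most alike genes were Smc2 (0.98), Racgap1 (0.98), Stau1 (0.96), Trim69 (0.96) and Elk3 (0.95), with 60 genes above 0.9. Those of Dusp10 included Gtf3a (0.96), Cyb561d2 (0.95) and Ints10 (0.95), with 46 above 0.9, and the others were intergenic transcripts without a gene name. How many of 24468 genes would exceed 0.9 by chance in 8 lungs was not worked out. These genes are the top of a large search and are not shown to vary with the member.

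The kinases that these phosphatases act on showed no called change. Of 14 MAP kinases, 8 were lower and 6 higher in knockout lungs with a median difference of -0.07, and 0 passed the threshold (at an unadjusted p under 0.05 in limma, 3 were lower and 1 higher, against 13.4% and 10.2% of all genes). Mapk14, which encodes p38 alpha, was at -0.20 (SE 0.071; adjusted p 0.152) and Mapk3, an ERK gene, at -0.29 (SE 0.12; adjusted p 0.202). Mapk7 was at -0.19 and Mapk15, an atypical ERK-like kinase linked to cilia, at 0.77 (adjusted p 0.108). Of 12 ciliated cell markers, 12 were higher in knockout lungs (list mean 0.38 to 0.84 in wild-type and 0.88 to 1.72 in knockout lungs). Of these, 9 were higher at an unadjusted p under 0.05 in limma, against 10.2% of all genes. For 7 every knockout lung lay above every wild-type lung, against 6.10% of all genes, and 0 passed the threshold. The part of these markers in the Mapk15 value was not tested. The mean level of the MAP kinase list was 0.13 higher, opposite in sign to its median. Its largest difference was that of Mapk10, at 1.75 (SE 1.14), which varied widely within wild-type (SD 2.03) and knockout lungs (SD 1.67). Mapk4, one of the 8 lower (-0.13), was well above background on 4 wild-type arrays but on 1 knockout array. It passed the filter on dim probes only through wild-type, so its direction was largely set by the filter.

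None of the upstream kinases passed either. Among 7 MAP kinase kinases the median was -0.04, with 3 lower at an unadjusted p under 0.05 (13.4% of all genes were): the ERK activators Map2k1 (-0.35, adjusted p 0.101 in limma) and Map2k2 (-0.25) and the p38 activator Map2k6 (-0.83, SE 0.25). Map2k7 was at 0.15. Of 19 MAP kinase kinase kinases, 12 were lower (54.3% of all genes were) and the median was -0.08. An unadjusted p under 0.05 in limma was reached by 4 lower and 2 higher, against 13.4% and 10.2% of all genes. Map3k11, a JNK pathway activator, came closest to the threshold, at -0.59 (SE 0.083; adjusted p 0.0566), and Map3k15 was at -0.66, Braf at -0.23 and Map3k20 at 0.45. Among 11 scaffolds and adaptors the median was 0.03, with Pea15a, which holds ERK in the cytoplasm, at -0.55 (adjusted p 0.0636), Tab2 at -0.13, Mapk8ip1 at 0.46 and Tab1 at 0.19.

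Downstream of the kinases, 8 of 11 MAP kinase activated kinases were lower, against 54.3% of all genes, with a median of -0.05. At an unadjusted p under 0.05 in limma, 4 were lower and 0 higher, against 13.4% and 10.2% of all genes. Rps6ka3 was at -0.29, Mknk1 at -0.33, Rps6ka4 at -0.26 and Mapkapk2, which p38 activates, at -0.47 (SE 0.19; adjusted p 0.201, limma). Of 16 measured ERK output and feedback genes, 11 were lower and the median was -0.18, and an unadjusted p under 0.05 was reached by 2 lower genes, 12.5% of the list against 13.4% of all genes, and by 0 higher ones. These were Fos, the immediate early AP-1 subunit, at -0.67 (SE 0.18; adjusted p 0.0921), and Ier3 at -0.44. Egr1 was at -0.51 (adjusted p 0.231) and Etv1 at 0.41. Spred3, another of the lower genes (-0.38), was well above background on 3 wild-type arrays but on 1 knockout array. It passed the filter on dim probes only through wild-type, so its direction was largely set by the filter. Of 16 AP-1 and CREB family factors, which also include Fos, 10 were lower (54.3% of all genes were) with a median of -0.13. An unadjusted p under 0.05 in limma was reached by 4 lower factors and 1 higher, against 13.4% and 10.2% of all genes. Among the lower were Atf3 at -0.81 (SE 0.19; adjusted p 0.0789) and Creb1 at -0.34, while Elk4 was at 0.41.

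**Figure D5:**
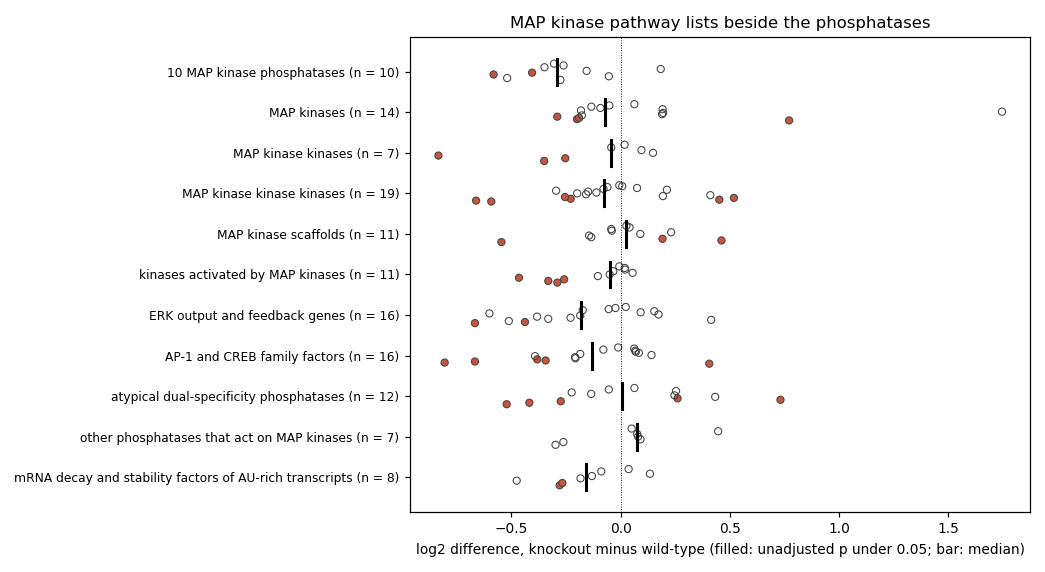
Differences between knockout and wild-type lungs (x axis, log2) for the 10 phosphatases and for 10 lists of the MAP kinase pathway (rows; points are genes, filled at an unadjusted p under 0.05, bars are medians). The median of the phosphatases, -0.29, lies lower than the median of any of the 10 lists, which run from -0.18 to 0.08.

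The plot of pathway lists places the phosphatases beside their relatives. Among 12 measured atypical dual-specificity phosphatases, which lack the kinase-binding domain, 6 were lower and 6 higher with a median of 0.00. An unadjusted p under 0.05 in limma was reached by 3 lower and 2 higher, against 13.4% and 10.2% of all genes. Dusp11, an RNA phosphatase, was at -0.52 (SE 0.11; adjusted p 0.0629, limma), Dusp23 at -0.42, Dusp22 at -0.27 and Dusp13 at 0.73. Of 7 other phosphatases that act on MAP kinases, 5 were higher and the median was 0.08, with Ptprj at -0.30, Ptpn7 at -0.26, Ppm1a at 0.09 and Ppm1b at 0.08.

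Phosphatase transcripts such as Dusp1 are short-lived and bound by AU-rich element factors. Of 8 such factors, 6 were lower with a median of -0.16, and 2 were lower at an unadjusted p under 0.05, as were 13.4% of all genes. Elavl1, a stabilising factor, was at -0.28 and Zfp36l2, a decay factor, at -0.27 (adjusted p 0.126 and 0.159, limma). Zfp36, also known as tristetraprolin, was at -0.48 (SE 0.21; adjusted p 0.224) and Khsrp at -0.18. None of these 10 lists had a member past the threshold.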

How the data were processed

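Whole-lung RNA from 8 mice, 4 per genotype, was labelled with Cy3 and hybridised to single-colour Agilent arrays, per the labels' protocols, and read with Agilent Feature Extraction 10.7.1.1, per the submitters' processing notes. The deposited scanner files hold intensity values, already background-subtracted by Feature Extraction per the file headers. The deposited value table holds the authors' log2 values; each column followed its array's log2 processed signal (r above 0.999) and had a median of 5.64, as under quantile normalization, and it served as an alternative. No source used here names the authors' normalization.

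Control and outlier spots were left out, spots of 1 probe averaged, and log2 processed signal taken relative to the array's 75th percentile. A probe was kept when well above background on at least 3 of 4 arrays of a group, and the brightest probe stood for a gene. The comparison of genotypes used lmFit and eBayes of limma 3.58.1 (R 4.3.3), two-sided, and was checked on simulated data. Permutation tests used all 70 divisions of the lungs. Symbols were updated through RefSeq GRCm38.p6 (26582 probes by accession, 2602 by symbol, 492 by synonym; 26005 kept the file's name).

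The members and lists were chosen with earlier results of these data known. Named are all members, Ggps1, up to 4 genes per pathway list with the smallest p, and for Dusp1, Dusp6 and Dusp10 the 5 genes most like each. Marker lists are given by counts, with Plac8, Lep, Adipoq and Plin1 named after their values were seen. So were Mapk10 and Mapk4 of the MAP kinase list and Spred3 of the ERK output list. The lists of lung, smooth muscle and fat cells gave medians of -0.18, 0.48 and 2.29, those of endothelial and neutrophil cells -0.09 and -0.28, and that of cardiac muscle 1.63. The fat median includes Lep, Adipoq and Plin1, which passed the filter only through the knockout group. The design text counts 4 mice per group, and the number of arrays limits the precision. Alternatives were normexp (offset 50), quantile and median scaling, other filters, the deposited values, the replicate number as a block, other ways to combine probes, variance trend, array weights, outlier spots kept, the cardiac list mean as covariate, and leaving out each lung. Figures were drawn with matplotlib 3.10.9.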

Additional observations from a re-analysis of the deposited data

Results flagged for a closer look

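Of 24 groups of 4 lungs tested for an outlying value (12 probes in each genotype), 1 held one, and chance gives about 1 in 20. It was the Dusp9 value of wild-type 2, at -5.12, far below the other 3 wild-type lungs, whose lowest was -4.51. That lung also had the highest Dusp1, Dusp2, Dusp4, Dusp5 and Dusp16 levels of its group.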

How the results depend on the processing

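The number of genes past the threshold, 15, was the least stable value: it was 9 with the mean of a gene's probes, 46 with the replicate block, 126 with a filter on all 8 arrays, 302 with array weights, 417 with a variance trend, 512 with normexp, 1698 with the cardiac covariate and 3518 without a filter, and 1 to 19 without 1 lung. It was 1 without wild-type 2, knockout 1 or knockout 2, 2 without wild-type 1 and 3 without wild-type 3. Members past it were 0, or 1 with normexp, no filter or a variance trend, and 2 with the cardiac covariate or an unadjusted p; leaving out a lung gave 0 each time. Pathway genes past it were 0, or 1 with the all-array filter or array weights, 2 with normexp or a variance trend, 6 with no filter and 11 with the cardiac covariate. Reversed were Dusp7 with the cardiac covariate (0.16) and Dusp4 without 1 lung (range -0.22 to 0.12). The cause of these shifts was not tested. Members lower in knockout lungs numbered 8 or 9, and their median stayed between -0.39 and -0.22. With the replicate number as a block, 0 members passed and adjusted p in limma was 0.0647 for Dusp5, 0.0983 for Dusp6 and 0.137 for Dusp16. The numbers are not shown to pair the lungs: deviations of same-numbered lungs correlated at 0.13, 0.47, 0.01 and -0.29 over 24461 genes, and 2 of 8 samples correlated best with their own number. With 4 lungs a group, differences near the SE of a variable gene such as Dusp2 (0.51) are not detectable.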
